A study of Arabidopsis thaliana with 16 samples.

Results

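The peripheral endosperm of Arabidopsis seeds was compared with the seed coat outside the chalazal region, the filial and the maternal layer that face each other along the side of the seed. The members are the 4 arrays whose titles name these compartments, 2 of peripheral endosperm and 2 of seed coat, of 16 arrays in all. Both groups were of genotype Ws-0 at the heart stage, with no treatment named, and so were the other 5 groups: micropylar endosperm, embryo proper and whole seeds with 2 arrays each, and chalazal endosperm and chalazal seed coat with 3 each. Per the labels, heart-shaped embryos of 52 to 85 micrometres were found in seeds from siliques of 1.2 to 1.5 cm on plants aged 38 to 46 days. The siliques were fixed in ethanol and acetic acid and embedded in paraffin, and compartments were cut from sections by laser capture microdissection, in which a laser frees chosen regions under a microscope. From each sample, 5 to 6 ng of RNA were amplified and hybridised to an Affymetrix ATH1 array, which carries short oligonucleotide probes for most Arabidopsis genes known at its design. The labels call the arrays biological replicates and do not say whether they came from separate plants. The p-values thus measure the spread between arrays of the same group, pooled over all 7 groups, which may be in part technical.

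The endosperm is a product of double fertilisation that nourishes the embryo. In Arabidopsis its nuclei first divide without cell walls, and around the heart stage the layer lining the seed cavity begins to form cells. The seed coat grows from the maternal integuments: its innermost layer makes proanthocyanidins, the pigments that turn seeds brown, its outer layers build up starch and mucilage, and some layers between them die early.

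Values are given as signal intensity on the scale the authors deposited, and differences as log2 units, peripheral endosperm minus seed coat, on log2(signal + 30.2) after each array was centred on its median. The offset, the 25th percentile of all values, shrinks the differences of dim probe sets. One limma model over all 16 arrays gave each difference its standard error (SE) and a p-value adjusted by Benjamini-Hochberg over 19475 tested probe sets, with a call at 0.05. A signal counted as background when it lay at or under the 95th percentile of 27 bacterial control probe sets on its array, a bound of 61.8 and 80.3 on the peripheral endosperm arrays and of 101.8 and 62.6 on the seed coat arrays. Where both dim arrays were background, the fold is a lower bound computed against that level and written "at least"; where 1 of them was, the difference is the model's and no exact size. Of the Arabidopsis probe sets, 62.8% and 56.7% lay above background in peripheral endosperm and 54.8% and 60.5% in seed coat. The log2 values of the 2 peripheral endosperm arrays correlated at r = 0.941 and those of the 2 seed coat arrays at 0.929, across probe sets, and the pairs between groups at 0.678 to 0.710. Only 2 arrays a group limit the precision. In dissected tissue, fewer cells of a type and less RNA per cell cannot be told apart.

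Of 22746 Arabidopsis probe sets, 13513 name 1 gene in the platform annotation, 503 name several and 8730 are unnamed here, so that a gene list is described through those of its genes that have a probe set of their own. Where a gene had several, the brightest was taken. The lists were chosen with earlier results of these data known, and some came from such an analysis. Their counts beside the share of all tested probe sets are thus a description and no independent support. Marker genes were first read against the labels. Of 16 markers of the inner seed coat, 3 had a named probe set (BAN, DFR and UGT80B1), and their summed signal was 4761 and 2047 in peripheral endosperm, against 35285 and 34575 in seed coat. The 5 endosperm markers of 21 that had one (MPC, AGL62, AGL28, IKU1 and IKU2) summed to 531 and 555 in peripheral endosperm, against 362 and 384 in seed coat. All but IKU1 were background on both seed coat arrays, and AGL62 and IKU2 were background on both peripheral endosperm arrays too. The 6 embryo markers of 23 that had one summed to 603 and 234 in peripheral endosperm, against 1325 and 1231 in seed coat, and CLV3, BBM and YAB3 were background on all 4 arrays. Most of the seed coat sum came from CR4, with 552 and 953, and LHW, with 614 and 156. None of the 15 markers of the outer seed coat had a named probe set. Inner seed coat markers were thus not at background in peripheral endosperm. DFR, an enzyme of proanthocyanidin synthesis, had signals of 3921 and 1417 in peripheral endosperm, against 24771 and 26245 in seed coat, and the first peripheral endosperm array held the higher signal of both DFR and BAN. Over the probe sets called lower in peripheral endosperm, the first array also held the higher value in 64.1%, against 48.5% of all tested probe sets. The part of seed coat RNA in the peripheral endosperm values was not tested.

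In all, 1772 probe sets were higher in peripheral endosperm than in seed coat, which is 9.1% of those tested, and 1709 were lower, which is 8.78%. Of the higher ones, 226 differed by over 4 log2 units and 470 were background on both seed coat arrays. Of the lower ones, 354 differed by over 4 log2 units and 532 were background on both peripheral endosperm arrays. The higher set held genes of nuclear division, of photosynthesis and of small cysteine-rich secreted proteins. The lower set held genes of pigment synthesis and of vacuolar proteases, though ALPHA-VPE was in the higher set. Single genes of cell wall and glycoside enzyme families stood in each set, as described in turn below. Both peripheral endosperm arrays lay above both seed coat arrays in 35.8% of the tested probe sets and below both in 28.2%. The tested probe sets had a median difference of 0.13 with centring and of 0.0388 without it. Leaving out 1 array at a time gave 842 to 1026 higher and 958 to 1163 lower calls: without peripheral endosperm replicate 1 there were 970 higher and 1163 lower, without its replicate 2 842 and 958, without seed coat replicate 1 960 and 1099, and without its replicate 2 1026 and 1060.

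**Figure D1:**
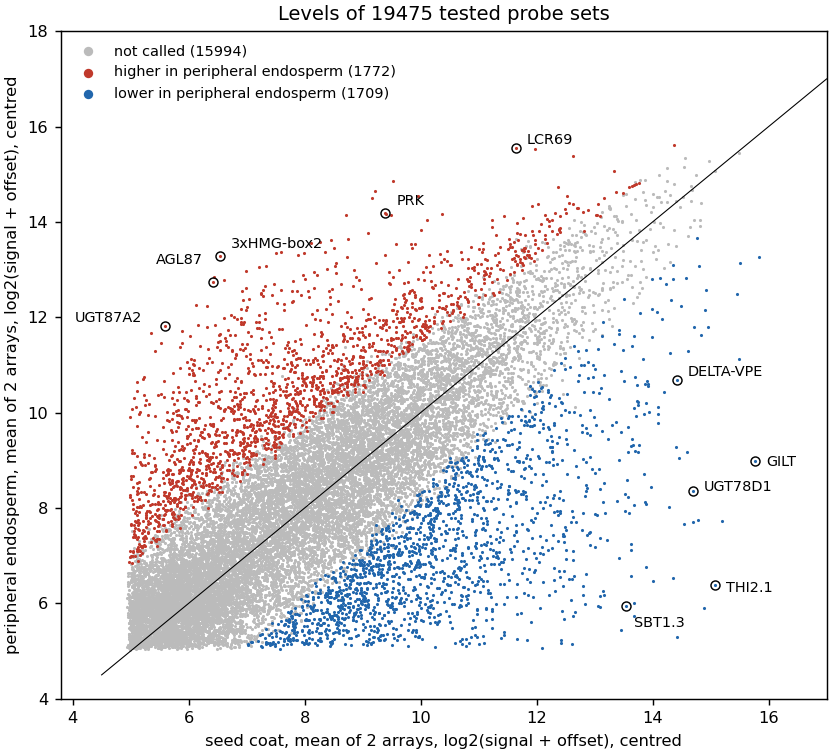
Each point is 1 of 19475 tested probe sets, with the mean of the 2 seed coat arrays on the x axis and the mean of the 2 peripheral endosperm arrays on the y axis, both as centred log2(signal + offset); red points (1772) were called higher in peripheral endosperm, blue points (1709) lower, grey points were not called, and the line marks equal levels. THI2.1 and GILT lie far to the right at low or moderate peripheral endosperm levels, and 3xHMG-box2, AGL87 and PRK lie far above the line.

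Genes of mitosis and cytokinesis stood higher in peripheral endosperm. Of 63 genes on the list 11 had a named and tested probe set, of which 10 were called higher and none lower, against 9.1% of all tested probe sets. As for all lists here, this describes genes chosen with earlier results known. The median difference was 4.03, or 3.198 with genes at background set to their lower bound. The gene 3xHMG-box2 (AT4G23800), whose protein binds chromosomes during mitosis, had signals of 11921 and 7715 in peripheral endosperm, against 89.3 and 45.8 in seed coat. Both seed coat arrays were background and far below both peripheral endosperm arrays, a difference of at least 92.7-fold (adjusted p = 1.79e-08). Its relative 3xHMG-box1 had 922 and 1109 in peripheral endosperm and 95.1 and 1.47 in seed coat, at least 10-fold higher (adjusted p = 0.00025). KINESIN-12B, a motor protein of the phragmoplast that builds the new cell wall, had 3598 and 2548 in peripheral endosperm, against 40.1 and 96.4 in seed coat. The groups did not overlap, with a difference of 5.11 ± 0.61 (SE; adjusted p = 6.99e-07) and 1 seed coat array at background.

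The 3 Aurora kinases, which control chromosome segregation and the division plane, moved together. AUR1 had signals of 2195 and 1344 in peripheral endosperm, against 8.13 and 46.8 in seed coat, and AUR3 had 896 and 950.1 in peripheral endosperm, against 44.6 and 13.1 in seed coat. AUR2 had 1670.0 and 737 in peripheral endosperm, against 118 and 7.19 in seed coat. None of the 3 overlapped between the groups: AUR1 was at least 16.8-fold higher (adjusted p = 3.74e-06), AUR3 at least 9.18-fold (adjusted p = 3.57e-05), and AUR2 differed by 4.03 ± 0.72 (SE; adjusted p = 0.000159) with 1 seed coat array at background. Of the spindle checkpoint genes, BUBR1 had 520.0 and 313 in peripheral endosperm, against 18.24 and 10.4 in seed coat, and was at least 4.18-fold higher (adjusted p = 0.000222). BUB3.1, which binds BUBR1, was the brightest of them in seed coat, with 2526 and 1804 in peripheral endosperm, against 513 and 307 in seed coat and a difference of 2.43 ± 0.56 (SE; adjusted p = 0.00235). BUB3.2 differed by 2.89 ± 0.68 (SE; adjusted p = 0.00276) with 1 seed coat array at background. HTR12, the centromeric histone H3, had 369 and 958 in peripheral endosperm, against 173 and 46.6 in seed coat, a difference of 2.42 ± 0.74 (SE; adjusted p = 0.0203). One seed coat array was background, and the call was lost without peripheral endosperm replicate 2 or seed coat replicate 2, where the adjusted p reached 0.287. The exception on the list was KEU, a membrane fusion protein of the cell plate, whose signals overlapped at 1463 and 1227 in peripheral endosperm and 1954 and 1377 in seed coat, with a difference of -0.19 ± 0.50 (SE; adjusted p = 0.862).

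Genes of DNA replication were fewer and less clear. Of 50 genes on the list 5 were tested, of which 3 were called higher and none lower, beside 9.1% of all tested probe sets called higher. The median difference was 1.77. TOPII, a topoisomerase that untangles replicated DNA, had 6104 and 6362 in peripheral endosperm, against 680.3 and 2139 in seed coat. PRL, a subunit of the replicative helicase, had 1246 and 1813 in peripheral endosperm, against 370.2 and 541 in seed coat, and PSF2, of the complex that starts and runs the replication fork, had 153 and 236 in peripheral endosperm, against 10.1 and 7.88 in seed coat. The groups did not overlap in any of the 3, with differences of 2.43 ± 0.75 (SE; adjusted p = 0.0227) for TOPII, 1.77 ± 0.57 (SE; adjusted p = 0.029) for PRL and at least 2.13-fold for PSF2 (adjusted p = 0.00547). ICU2, the catalytic subunit of DNA polymerase alpha, and POLA3, a primase subunit, differed by 0.88 and 0.64 and were not called. Without peripheral endosperm replicate 1 or 2 the count of 3 became 1 and 0, and without seed coat replicate 1 or 2 it became 1 and 2.

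Nuclear genes of photosynthesis were higher in peripheral endosperm almost without exception. Of 76 genes on the list 14 were tested, of which 13 were called higher and none lower, beside 9.1% of all tested probe sets called higher. The median difference was 3.41. Their signals ran from 1028 to 18926 in peripheral endosperm and from 66.3 to 1606 in seed coat over the 13. The highest signals were those of PRK, the gene of the Calvin cycle enzyme that makes the acceptor of carbon dioxide, with 17039 and 18926 in peripheral endosperm, against 801 and 536 in seed coat. Both peripheral endosperm arrays lay above both seed coat arrays by 4.80 ± 0.46 (SE; adjusted p = 3.61e-08). The photosystem I subunit gene PSAE-1 had 7776 and 7360.3 in peripheral endosperm, against 292 and 237 in seed coat, a difference of 4.79 ± 0.58 (SE; adjusted p = 9.38e-07). PSAN, of the same complex, had 7168 and 4767 in peripheral endosperm, against 101 and 268 in seed coat, and differed by 4.98 ± 0.67 (SE; adjusted p = 3.72e-06) with 1 seed coat array at background. The groups stood apart in both.

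The photosystem II subunit genes PSBW and PSBY differed by 2.85 ± 0.42 (SE; adjusted p = 1.39e-05) and 3.501 ± 0.54 (SE; adjusted p = 2.53e-05). LHCB4.1 and LHCB4.2, which encode the same minor antenna protein of photosystem II, differed by 2.79 and 3.89 (LHCB4.2 with 1 seed coat array at background), while their relative LHCB4.3 was not called at 0.09 ± 0.57 (SE; adjusted p = 0.951). Enzymes of chlorophyll synthesis were called too. CHLM, a methyltransferase of that path, had 1837 and 1906 in peripheral endosperm, against 178 and 140.0 in seed coat, and PORB, which makes chlorophyllide in the light, had 1318 and 1028 in peripheral endosperm, against 127 and 162 in seed coat. The groups did not overlap, with differences of 3.43 ± 0.57 (SE; adjusted p = 6.67e-05) and 2.87 ± 0.72 (SE; adjusted p = 0.005), and the magnesium chelatase subunit gene CHLI2 differed by 2.86 (adjusted p = 0.0103). RCA, the activase of Rubisco, had 2104 and 3218 in peripheral endosperm, against 163 and 203 in seed coat, a difference of 3.72 ± 0.69 (SE; adjusted p = 0.000253). SBPASE, another Calvin cycle enzyme, and ATPC1, a subunit of the chloroplast ATP synthase, differed by 2.60 ± 0.48 (SE; adjusted p = 0.000223) and 3.39 ± 0.55 (SE; adjusted p = 4.3e-05). Leaving out single arrays kept 11 or 12 of the list called.

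Genes of the plastid's own genome shifted the same way by less. All 69 tested genes, of 85 on the list, had a positive difference, from 0.23 to 2.81 with a median of 1.26, and in 67 of them both peripheral endosperm arrays lay above both seed coat arrays, beside 35.8% of all tested probe sets. Of the 69, 26 were called higher, beside 9.1% of all tested probe sets, and none lower. The called ones included the translation genes rpl16 and rps3, which encode ribosomal proteins, the polymerase subunit gene rpoB and photosystem genes such as psbF. For rpl16 the signals were 14839 and 17369 in peripheral endosperm, against 2309 and 2525 in seed coat, and for rpoB 6198 and 9467 in peripheral endosperm, against 2195 and 2224 in seed coat. Neither overlapped between the groups, with differences of 2.81 ± 0.41 (SE; adjusted p = 1.11e-05) and 1.87 ± 0.44 (SE; adjusted p = 0.00276). The gene psbF had the high signals of 46739 and 50001 in peripheral endosperm, against 23279 and 19964 in seed coat and differed by 1.26 ± 0.32 (SE; adjusted p = 0.00515). The number called moved with the arrays used, from 26 to 16 and 7 without peripheral endosperm replicate 1 or 2, to 12 and 11 without seed coat replicate 1 or 2, and to 55 with the 4 arrays alone.

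Known endosperm regulators were dim on these arrays. Of 46 genes on the list 15 were tested, of which 3 were called higher and none lower, beside 9.1% of all tested probe sets called higher. The 12 others ranged from -0.44 to 1.56. The MADS-box gene AGL92 had 115 and 171 in peripheral endosperm, against 12.2 and 2.51 in seed coat. AGL28, of the same family, had 150.4 and 53.2 in peripheral endosperm, against 3.15 and 2.1 in seed coat. Both were background on both seed coat arrays, and AGL28 also on 1 peripheral endosperm array, so that AGL92 was at least 1.65-fold (adjusted p = 0.0286) and AGL28 at least 1.18-fold higher (adjusted p = 0.0393). MPC, a gene expressed from the maternal copy in endosperm, had 86.9 and 236 in peripheral endosperm, against 30.4 and 2.82 in seed coat, at least 1.7-fold higher (adjusted p = 0.0445). Without peripheral endosperm replicate 1 MPC alone was called, and without its replicate 2 or either seed coat array none was. MPC and AGL28 were not called without centring either. The adjusted p reached 0.2 for AGL92, 0.33 for AGL28 and 0.385 for MPC. AGL62, which holds back wall formation in endosperm, had 41 and 48.3 in peripheral endosperm and 2.33 and 14.3 in seed coat, background throughout. IKU1, a regulator of endosperm growth, had 216 and 215 in peripheral endosperm and 322 and 325 in seed coat and was not called at -0.44 ± 0.59 (SE; adjusted p = 0.706).

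One MADS-box gene outside that list was bright. AGL87 had signals of 7066 and 6056 in peripheral endosperm, against 38 and 83.2 in seed coat. The groups lay far apart, with a difference of 6.31 ± 0.56 (SE; adjusted p = 1.36e-08) and 1 seed coat array at background. Of 30 tested MADS-box genes 3 were called higher, AGL87 with AGL92 and AGL28, and none lower. This is near the share of 9.1% called higher over all tested probe sets.

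Small cysteine-rich proteins of the defensin type, secreted peptides known for defence and signalling, gave 4 higher and no lower call among 12 tested. Of all tested probe sets, 9.1% were called higher. LCR69 was bright, with 45049 and 47328 in peripheral endosperm, against 5991 and 1746 in seed coat. The peripheral endosperm arrays were close to each other and above both seed coat arrays, a difference of 3.91 ± 0.69 (SE; adjusted p = 0.000129). PDF2.1 had 2816 and 2027 in peripheral endosperm, against 21.2 and 7.32 in seed coat, at least 23.3-fold higher (adjusted p = 3.18e-07), and LCR24 had 2791 and 3349.9 in peripheral endosperm, against 96.5 and 41.6 in seed coat, at least 29.7-fold higher (adjusted p = 0.000722). LCR68 was dim, with 224 and 283 in peripheral endosperm, against 110.0 and 2.63 in seed coat, and differed by 2.15 ± 0.73 (SE; adjusted p = 0.0392) with 1 seed coat array at background. Its call was lost in 8 of the alternatives, among them no centring, quantile normalization and the fits without peripheral endosperm replicate 1 or 2 or seed coat replicate 2, and its adjusted p reached 0.486.

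Several single members of other lists were also strongly higher in peripheral endosperm. SWEET8, a sugar transporter of the plasma membrane, had 1031 and 1047 in peripheral endosperm, against 4.68 and 4.59 in seed coat. The seed coat arrays were at background and the gene was at least 10.3-fold higher (adjusted p = 4.62e-07); it was the only gene of 15 tested transport genes called higher. UGT87A2, a sugar-transferring enzyme, had 3088 and 3813 in peripheral endosperm, against 39.7 and 4.82 in seed coat, and was at least 33.3-fold higher (adjusted p = 1.66e-06). GH9C1 and GH9B8 belong to the endoglucanases that cut glucan chains in cell walls. GH9C1 had 2419 and 1696 in peripheral endosperm, against 98.7 and 1.72 in seed coat, at least 19.8-fold higher (adjusted p = 1.44e-06), and GH9B8 was at least 6.69-fold higher (adjusted p = 0.000679). OLEO3, a coat protein of oil bodies, had 2572 and 1318 in peripheral endosperm, against 127 and 4.85 in seed coat. The groups did not overlap, with a difference of 4.75 ± 0.84 (SE; adjusted p = 0.000143) and 1 seed coat array at background, while 5 of the 7 tested embryo and maturation genes were not called. FaTA, which releases fatty acids from their carrier, had 3907 and 3525 in peripheral endosperm, against 1062 and 489 in seed coat and differed by 2.40 ± 0.54 (SE; adjusted p = 0.00195), the single call among 4 oil synthesis genes, which was lost without seed coat replicate 2 (adjusted p = 0.0679).

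**Figure D2:**
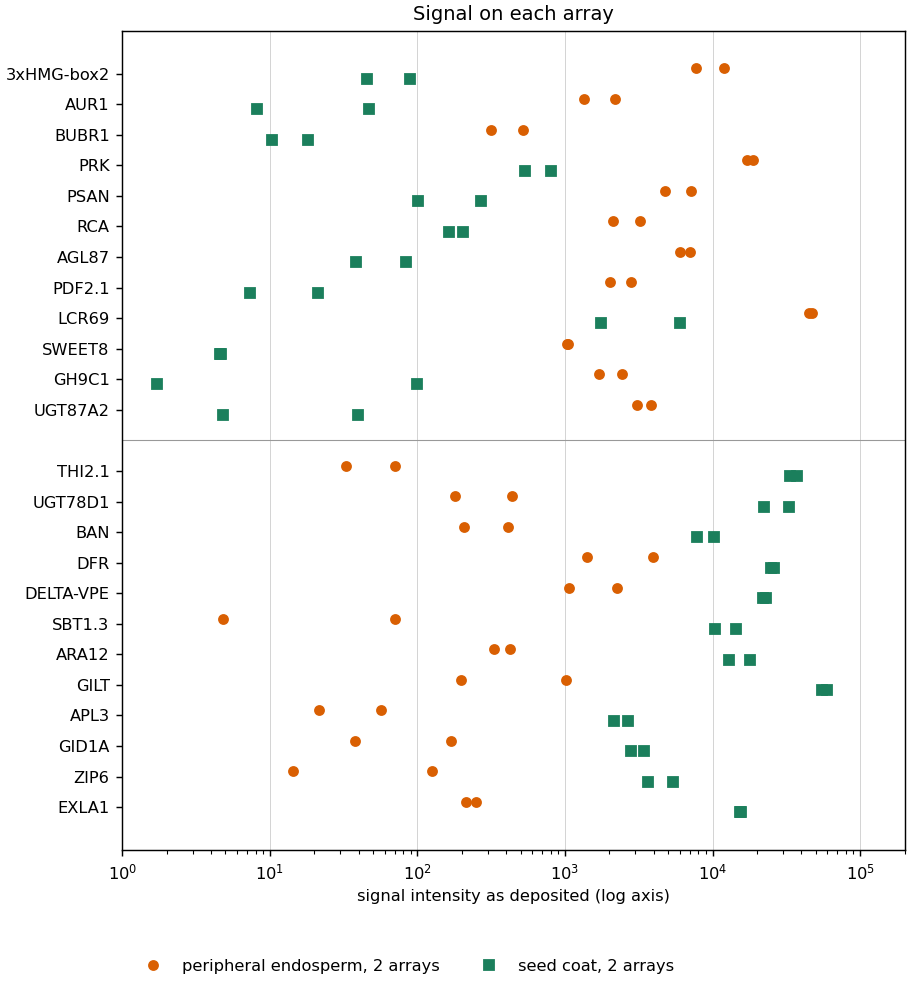
Signal intensity as deposited, on a log axis, of 12 genes called higher (upper block) and 12 called lower (lower block) in peripheral endosperm; orange circles are the 2 peripheral endosperm arrays and green squares the 2 seed coat arrays. The circles and squares overlap in none of the 24 genes. All were picked from the calls, and those of largest difference on condition of no overlap. Over all tested probe sets, both peripheral endosperm arrays lay above both seed coat arrays in 35.8% and below both in 28.2%. DFR and DELTA-VPE keep 1062 or more units of signal in peripheral endosperm.

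Of 37 flavonoid and proanthocyanidin genes on the list 7 were tested. Of these, 4 were called lower in peripheral endosperm, against 8.78% of all tested probe sets, and none higher. The 3 uncalled genes had positive differences. Under some alternatives, among them array weights and the 4 arrays alone, 1 gene of the list was called higher. UGT78D1, which adds rhamnose to flavonols, had 439 and 179 in peripheral endosperm, against 33130.0 and 22296 in seed coat. BAN, the reductase that makes epicatechin in the innermost seed coat layer, had 413 and 206 in peripheral endosperm, against 10160.0 and 7870.1 in seed coat. CHIL, a chalcone isomerase-like protein at the start of the path, had 472 and 169 in peripheral endosperm, against 7359.6 and 7774 in seed coat. All 4 genes stood apart between the groups, with differences of -6.35 ± 0.66 (SE; adjusted p = 1.12e-07) for UGT78D1, -4.70 ± 0.68 (SE; adjusted p = 9.38e-06) for BAN, -4.49 ± 0.64 (SE; adjusted p = 7.62e-06) for CHIL and -3.32 ± 0.55 (SE; adjusted p = 5.58e-05) for DFR. Of the uncalled 3, UGT78D2, which glucosylates flavonoids, had 296 and 278 in peripheral endosperm and 83 and 69.1 in seed coat and a difference of 1.67 ± 0.62 (SE; adjusted p = 0.0615), and UGT80B1, a sterol glucosyltransferase needed for seed coat pigment, had 427 and 424 in peripheral endosperm and 354 and 460.4 in seed coat and a difference of 0.16 ± 0.77 (SE; adjusted p = 0.932).

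The vacuolar processing enzymes split. These cysteine proteases mature vacuolar proteins and take part in cell death, and DELTA-VPE is known for the early death of inner integument layers. DELTA-VPE had 2249 and 1062 in peripheral endosperm, against 22961 and 21923 in seed coat. GAMMA-VPE had 2047 and 1605 in peripheral endosperm, against 9895 and 7079 in seed coat, and BETA-VPE had 58.7 and 61.3 in peripheral endosperm, against 701 and 858 in seed coat. In all 3 the peripheral endosperm arrays lay below both seed coat arrays. The differences were -3.74 ± 0.54 (SE; adjusted p = 9.85e-06) for DELTA-VPE and -2.10 ± 0.43 (SE; adjusted p = 0.000791) for GAMMA-VPE, and BETA-VPE was at least 7.5-fold lower (adjusted p = 0.000202). ALPHA-VPE went the other way with 493 and 317 in peripheral endosperm, against 12.9 and 73.7 in seed coat, a difference of 2.76 ± 0.65 (SE; adjusted p = 0.00272) with 1 seed coat array at background; this call was lost without peripheral endosperm replicate 1 or seed coat replicate 1. CYS1, an inhibitor of cysteine proteases, was lower as well, with 135 and 156 in peripheral endosperm, against 1387 and 2058 in seed coat and a difference of -3.20 ± 0.61 (SE; adjusted p = 0.000308). Of the 6 tested genes, of 40 on the list, 4 were thus lower and 1 higher, beside 8.78% and 9.1% of all tested probe sets.

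THI2.1, an antimicrobial thionin, had the largest negative difference of the model among probe sets that name 1 gene; 2 unnamed ones had larger ones. Its signals were 70.8 and 33 in peripheral endosperm, against 33553 and 37373 in seed coat. The difference was -8.70 ± 0.80 (SE; adjusted p = 1.78e-08), with 1 peripheral endosperm array at background. GILT, a member of the thiol reductase family, was the brightest of the largest falls, with 1013 and 198 in peripheral endosperm, against 59597 and 54800.0 in seed coat and a difference of -6.78 ± 0.75 (SE; adjusted p = 2.52e-07). TBL38, of a family whose members acetylate wall polysaccharides, had 2.89 and 72.4 in peripheral endosperm, against 8490.0 and 9409.8 in seed coat and was at least 83.4-fold lower (adjusted p = 1.8e-08).

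Single genes of 3 protease and glycosidase families were lower, beside 8.78% of all tested probe sets. Of 8 tested subtilases, a family of serine proteases, 2 were lower and none higher. SBT1.3 had 70.4 and 4.84 in peripheral endosperm, against 10334 and 14455 in seed coat, a difference of -7.60 ± 0.77 (SE; adjusted p = 7.58e-08) with 1 peripheral endosperm array at background. ARA12, a subtilase needed for the release of mucilage from the seed surface, had 421 and 328 in peripheral endosperm, against 17884 and 12851 in seed coat. Both seed coat arrays lay above both peripheral endosperm arrays, and the difference was -5.15 ± 0.75 (SE; adjusted p = 1.21e-05); it was 1 of 2 tested mucilage genes. Of 23 serine carboxypeptidase-like genes, which encode vacuolar or secreted peptidases and acyltransferases, 6 were lower and 2 higher. scpl20 had 963 and 323 in peripheral endosperm, against 22559 and 21430.0 in seed coat, and scpl35 had 5.95 and 2.12 in peripheral endosperm, against 2194 and 1943 in seed coat. Both were apart between the groups: scpl20 differed by -5.12 ± 0.60 (SE; adjusted p = 5.04e-07) and scpl35 was at least 19.5-fold lower (adjusted p = 7.51e-06). By contrast, scpl50 was higher by 2.66 ± 0.58 (SE; adjusted p = 0.00132) and scpl47 was at least 3.2-fold higher (adjusted p = 0.0221).

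Of 16 tested beta-glucosidases, which split sugars from glycosides, 4 were lower and none higher. BGLU29 had 59.2 and 3.61 in peripheral endosperm, against 5352 and 5939 in seed coat, and BGLU40 had 41 and 5.15 in peripheral endosperm, against 1245 and 1152 in seed coat. Peripheral endosperm was background for both, and BGLU29 was at least 52.7-fold lower (adjusted p = 2.5e-07) and BGLU40 at least 11.4-fold lower (adjusted p = 1.99e-05). BGLU25 differed by -3.40 ± 0.67 (SE; adjusted p = 0.000472) with 1 peripheral endosperm array at background, and BGLU28 was at least 2.68-fold lower (adjusted p = 0.0393; up to 0.402 over the alternatives, and lost without peripheral endosperm replicate 1 or either seed coat array). Of 39 tested UDP-glycosyltransferases, which attach sugars to small molecules, 7 were lower and 3 higher, beside 8.78% and 9.1% of all tested probe sets. Beside UGT78D1, UGT73B1 had 78.5 and 95.9 in peripheral endosperm, against 6609 and 5361 in seed coat, a difference of -5.58 ± 0.62 (SE; adjusted p = 2.72e-07). UGT76E2 was higher by 3.39 ± 0.70 (SE; adjusted p = 0.000784) with 1 seed coat array at background. The count of 7 fell to 3 without either peripheral endosperm array or seed coat replicate 2, and to 4 without seed coat replicate 1. The medians of these 3 families were -0.43 for the carboxypeptidases, -0.08 for the beta-glucosidases and 0.16 for the glycosyltransferases, beside 0.13 over all tested probe sets.

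Wall-related genes gave few calls, beside 8.78% of all tested probe sets called lower and 9.1% called higher. EXLA1, an expansin-like protein, had 249.8 and 213 in peripheral endosperm, against 15602 and 15405 in seed coat, a difference of -5.80 ± 0.59 (SE; adjusted p = 7.58e-08); the other 15 of 16 tested expansins were not called. EXGT-A3, a xyloglucan endotransglucosylase, which cuts and rejoins wall xyloglucans, had 348 and 99.2 in peripheral endosperm, against 4764 and 6057 in seed coat. It too was lower on both peripheral endosperm arrays, with a difference of -4.52 ± 0.62 (SE; adjusted p = 4.55e-06), and the other 7 of its 8 tested family members were not called. Among endoglucanases GH9B5 and GH9B7 were lower, with differences of -4.70 ± 0.70 (SE; adjusted p = 1.5e-05) and -2.40 ± 0.62 (SE; adjusted p = 0.00643), and GH9B5 was background on 1 peripheral endosperm array. GH9C1 and GH9B8 were higher, so that 2 of 13 went each way. The GH9B7 call was lost without peripheral endosperm replicate 2 or seed coat replicate 1, where the adjusted p reached 0.0737. HCT, an enzyme of lignin precursor synthesis, was 1 lower gene of 9 tested phenylpropanoid genes, at -2.71 ± 0.63 (SE; adjusted p = 0.00246). SP1L3, of the SPIRAL1 family of microtubule proteins, had 198 and 41.7 in peripheral endosperm, against 3203 and 5045 in seed coat, a difference of -4.89 ± 0.71 (SE; adjusted p = 1.16e-05) with 1 peripheral endosperm array at background.

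Starch, transport and hormone lists held single strong genes rather than common shifts, beside 8.78% of all tested probe sets called lower and 9.1% called higher. APL3, a large subunit of the enzyme that makes ADP-glucose for starch, had 56.2 and 21.6 in peripheral endosperm, against 2658 and 2155 in seed coat. Both peripheral endosperm arrays were background, and the gene was at least 22.6-fold lower (adjusted p = 1.3e-06), while the other 4 starch genes tested ranged from -1.46 to 0.04 and were not called. ZIP6, of a family of metal ion transporters, had 14.4 and 125 in peripheral endosperm, against 5430.2 and 3672 in seed coat, a difference of -5.66 ± 0.64 (SE; adjusted p = 3.18e-07) with 1 peripheral endosperm array at background. The sugar transporters SWEET1 and SWEET2 were lower too. SWEET1 had 77.8 and 80.4 in peripheral endosperm, against 812 and 603 in seed coat and SWEET2 had 3.91 and 3.97 in peripheral endosperm, against 133 and 136 in seed coat. Neither overlapped between the groups: SWEET1 differed by -2.65 ± 0.71 (SE; adjusted p = 0.00839), and SWEET2 was at least 1.53-fold lower (adjusted p = 0.0389). The SWEET1 call was lost without either peripheral endosperm array or seed coat replicate 1 (adjusted p up to 0.138) and the SWEET2 call without any 1 of the 4 arrays (up to 0.166).

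GID1A, a gibberellin receptor, had 169 and 37.7 in peripheral endosperm, against 3442 and 2801 in seed coat. The difference was -4.66 ± 0.68 (SE; adjusted p = 1.23e-05) with 1 peripheral endosperm array at background, and the other 4 tested gibberellin genes were not called. RR22, a response regulator of the cytokinin pathway, had 115 and 146 in peripheral endosperm, against 1686 and 768 in seed coat. It was lower on both peripheral endosperm arrays, with a difference of -2.78 ± 0.55 (SE; adjusted p = 0.000465), and was the 1 called gene of 6. Of 11 auxin genes 1 was higher and 1 lower. UGT84B1, which conjugates the auxin indole-3-acetic acid to glucose, had 557 and 264 in peripheral endosperm, against 4.53 and 37.3 in seed coat, and YUC6, an enzyme of auxin synthesis, had 5.41 and 5.85 in peripheral endosperm, against 351 and 156 in seed coat. The groups did not overlap: UGT84B1 was at least 4-fold higher (adjusted p = 0.000411), and YUC6 at least 2.48-fold lower (adjusted p = 0.00246; 0.065 without seed coat replicate 1).

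Other families gave 4 calls at most, beside 9.1% of all tested probe sets called higher and 8.78% called lower. Of 20 tested genes of microtubule-binding proteins 1 was higher and 3 were lower, SP1L3 among them, and of 7 tubulins TUB5 was lower, with 81.5 and 4.76 in peripheral endosperm, against 850.4 and 1204 in seed coat and a difference of -3.97 ± 0.72 (SE; adjusted p = 0.000192); 1 peripheral endosperm array was background. Of 23 genes of ubiquitin transfer, UBC20, a ubiquitin-conjugating enzyme of the cell cycle, was higher with 2032 and 1037 in peripheral endosperm, against 133 and 7.3 in seed coat, a difference of 4.34 ± 0.62 (SE; adjusted p = 9.92e-06) with 1 seed coat array at background, and 1 was lower. GSTU18, a glutathione S-transferase, was at least 5.43-fold higher (adjusted p = 0.000458), the 1 call among 11 such genes. Of 4 peroxidases PRXR1 was lower, with 1267 and 719.8 in peripheral endosperm, against 17885 and 14240.0 in seed coat and a difference of -3.93 ± 0.53 (SE; adjusted p = 4.17e-06). IAA31, an auxin response repressor, was at least 7.28-fold lower (adjusted p = 0.00133), the 1 call of 6 genes of its list. Of 18 cytochrome P450s 1 was called in each direction, and of 4 WRKY and 4 bHLH transcription factors none was. None of the 3 tested genes of DNA methylation and chromatin was called.

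**Figure D3:**
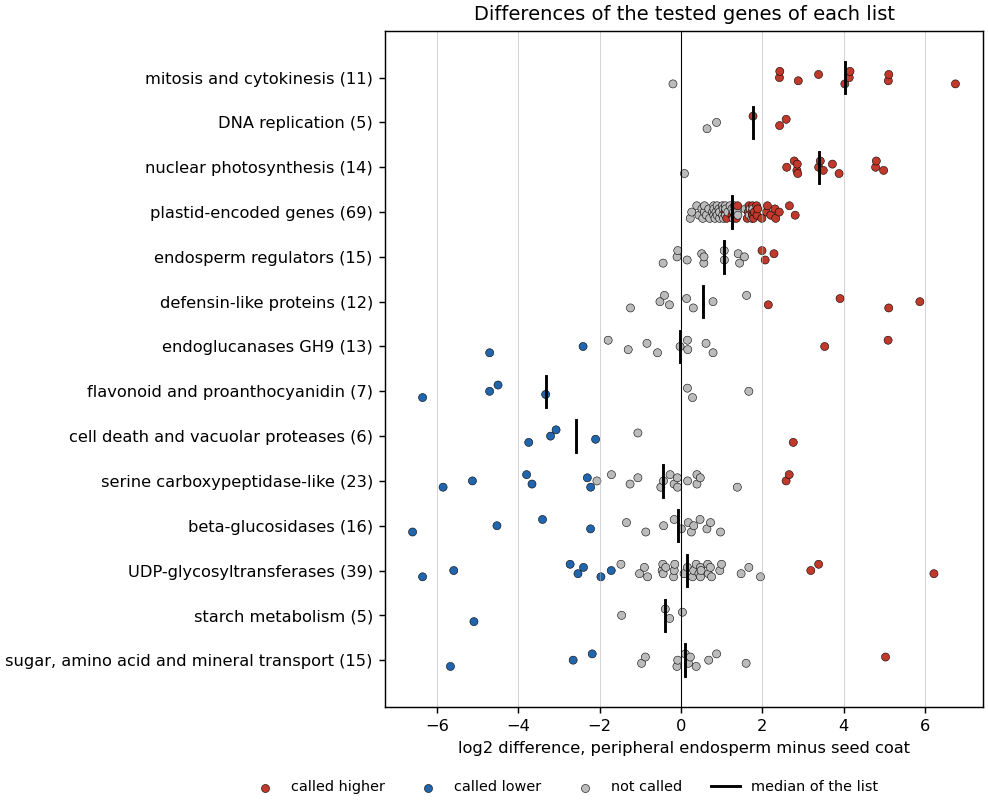
Log2 difference, peripheral endosperm minus seed coat, of each tested gene of 14 lists or families (number of tested genes in parentheses; 1 point per gene, the brightest probe set); red points were called higher, blue points lower, grey points neither, and the black bar is the median. The mitosis, photosynthesis and plastid-encoded genes lie on the right, the flavonoid and protease genes mostly on the left, and the enzyme families spread to both sides of 0.

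The 12 largest positive and the 12 largest negative differences of the model were taken among called probe sets that name 1 gene and do not overlap between the groups. They held 4 genes with a symbol each, 3xHMG-box2, AGL87, UGT87A2 and PDF2.1 for the rises and THI2.1, SBT1.3, TBL38 and GILT for the falls. The other 8 each way are listed by locus alone, while 11.7% of all probe sets that name 1 gene have a symbol (1580 of 13513). Seed coat was background on both arrays for 8 of the rises and peripheral endosperm for 5 of the falls, so these have a lower bound and their order is the model's. AT5G60930 had 3567 and 2702 in peripheral endosperm, against 15.4 and 7.68 in seed coat, and AT3G44050 had 5048 and 4340.5 in peripheral endosperm, against 100.4 and 8.98 in seed coat. Both were background in seed coat and at least 30.2-fold and at least 45.4-fold higher (adjusted p = 3.18e-09 and 1.45e-08). AT1G78780 had 4.45 and 3 in peripheral endosperm, against 6365 and 6377 in seed coat, and AT5G47330 had 7.79 and 4.32 in peripheral endosperm, against 5798 and 5309.9 in seed coat. Peripheral endosperm was background for both, at least 59.5-fold and at least 51.9-fold lower (adjusted p = 2.3e-09 and 2.72e-08).

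The same filial against maternal step was measured at the chalazal pole, where the chalazal endosperm was set against the chalazal seed coat on 6 other arrays. The background bound was 161.5, 108.5 and 54.8 on the chalazal endosperm arrays, and 93.2, 136.7 and 80.8 on the chalazal seed coat arrays. Where pole arrays were background, a pole difference is the model's and no exact size, and one near 0 does not show equal levels. At the pole 3834 probe sets were higher (19.7%) and 2973 lower (15.3%). Of the 1772 probe sets higher along the side, 724 were also higher at the pole, which is 40.9% of the side's and 18.9% of the pole's; 96 were lower there. Of the 1709 lower along the side, 857 were also lower at the pole, 50.1% of the side's and 28.8% of the pole's; 105 were higher there. The difference between the 2 steps was tested as 1 contrast. Over all tested probe sets it was higher along the side for 1513 (7.77%) and lower for 1748 (8.98%). Of the side's higher calls 577 (32.6%) also differed from the pole in the same direction, and of its lower calls 578 (33.8%). The contrast contains the difference by which these probe sets were called. Shares above those of all tested probe sets are thus in part set by the selection and are no result of their own. Medians of the SD between arrays were 0.29 in peripheral endosperm and 0.33 in seed coat, and 0.70 in chalazal endosperm and 0.64 in chalazal seed coat. Of the Arabidopsis probe sets, 44.7%, 50.6% and 64.4% lay above background in chalazal endosperm and 56.5%, 56.8% and 61.9% in chalazal seed coat.

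The counts of this last contrast moved with single arrays and with the centring. Without peripheral endosperm replicate 1 or 2 there were 829 and 839 higher and 1113 and 1037 lower, and without seed coat replicate 1 or 2 there were 903 and 915 higher and 1116 and 1109 lower. Without centring there were 2060 higher and 1323 lower.

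**Figure D4:**
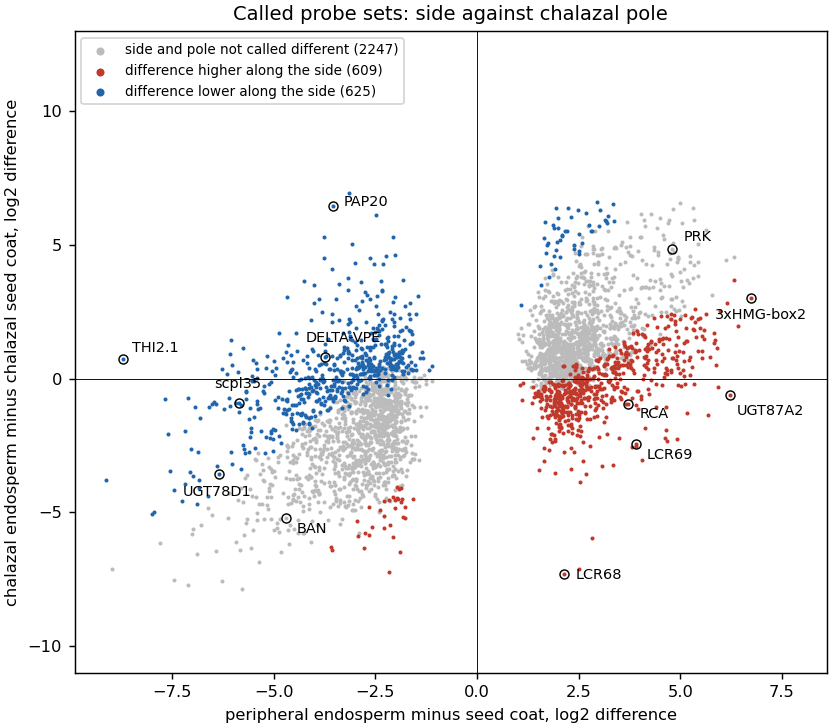
Each point is a probe set called between peripheral endosperm and seed coat; the x axis is that log2 difference and the y axis the log2 difference of chalazal endosperm minus chalazal seed coat. Red and blue mark probe sets whose 2 differences were themselves called different (609 higher and 625 lower along the side) and grey those that were not (2247). THI2.1, UGT87A2 and RCA lie within 1 unit of 0 on the y axis, and BAN and PRK differ alike on both axes. Most chalazal signals of THI2.1 were background, as were those of BAN in chalazal endosperm.

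Of the 11 tested genes of the division list, 4 had a called larger difference along the side than at the pole, and 1 a smaller one. Seed coat was background on both arrays for 3xHMG-box2, BUBR1, AUR3 and PSF2 and on 1 for KINESIN-12B, so the sizes given for them are the model's and not exact. 3xHMG-box2 differed by 6.75 along the side and 3.03 at the pole, a difference of 3.71 ± 0.80 (SE; adjusted p = 0.00176). BUBR1 differed by 3.38 along the side and 0.39 at the pole (difference 2.99, adjusted p = 0.0106), and KINESIN-12B by 5.11 and 2.37 (adjusted p = 0.0165). The Aurora kinases showed no called difference between the steps: AUR3 had 4.16 along the side and 4.298 at the pole (adjusted p = 0.936). The difference was larger along the side than at the pole for all 3 called replication genes, for TOPII by 3.18 (adjusted p = 0.0234), for PSF2 by 2.55 (adjusted p = 0.0379) and for PRL by 2.14 (adjusted p = 0.0443). KEU was the reverse, -0.19 along the side and 2.08 at the pole (adjusted p = 0.0151). PSF2 was background on all chalazal arrays, so its pole difference of 0.04 means no detected signal in either chalazal tissue.

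Of the 14 tested nuclear photosynthesis genes, 4 had a called larger difference along the side than at the pole, and none a smaller one. A missing call for the others does not show that the steps were equal. PRK differed by 4.80 along the side and 4.87 at the pole, and PSBW by 2.85 and 3.03, with no called difference between the steps (adjusted p = 0.96 and 0.87). For RCA, CHLM, SBPASE and PSAN the difference was larger along the side than at the pole. RCA differed by 3.72 along the side and -0.94 at the pole, a difference of 4.66 ± 0.90 (SE; adjusted p = 0.00057), and CHLM by 3.43 and 0.17 (adjusted p = 0.00268). None of the 69 plastid-encoded genes had a called larger difference along the side than at the pole, 2 had a smaller one, and 58 were higher in chalazal endosperm than in chalazal seed coat.

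Among the genes lower in peripheral endosperm, the flavonoid genes BAN and CHIL were lower at the pole as well, with differences of -5.23 and -5.64 there and no called difference from the side (adjusted p = 0.741 and 0.381). BAN and CHIL were background on all chalazal endosperm arrays, so these pole differences are no exact sizes. UGT78D1 was lower by more along the side than at the pole (difference -2.77, adjusted p = 0.0253). DELTA-VPE differed by -3.74 along the side and 0.82 at the pole, a difference of -4.56 ± 0.70 (SE; adjusted p = 4.46e-05). THI2.1 differed by -8.70 and 0.73 (difference -9.44 ± 1.03, adjusted p = 6.49e-07). Its pole signals were mostly background, at 208, 9.72 and 30.2 in chalazal endosperm and 11, 183 and 4.32 in chalazal seed coat. For scpl20 the difference between the steps was -4.92 ± 0.77 (adjusted p = 6.33e-05). For scpl35 and BGLU29 it was called in the same direction (adjusted p = 0.00169 and 0.000159), with no exact size, since peripheral endosperm was background. LCR68 was reversed: it differed by 2.15 along the side and -7.30 at the pole, where its level was 6.85 in chalazal endosperm and 14.15 in chalazal seed coat (adjusted p of the difference 2.6e-07). PAP20, a purple acid phosphatase, went the other way, with -3.54 along the side and 6.46 at the pole (adjusted p = 8.36e-08). For LCR68 the chalazal endosperm signals were 182, 71.2 and 5.44, only the first above background, so its -7.30 is no exact size.

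The mean levels over all 7 groups place these genes in the seed, as a description without a test. 3xHMG-box2 had a level (centred log2) of 13.29 in peripheral endosperm and 6.54 in seed coat, and 13.65 in micropylar endosperm, 13.51 in embryo proper, 9.27 in chalazal endosperm and 6.24 in chalazal seed coat. PRK had 14.20 in peripheral endosperm, the highest of the 7 groups, 13.18 in micropylar endosperm, 12.89 in chalazal endosperm and 11.37 in the embryo. RCA too was highest in peripheral endosperm, at 11.42, with 9.31 in the embryo as the next compartment. SWEET8 had 10.12 in peripheral endosperm, 10.40 in micropylar endosperm and 12.57 in chalazal endosperm. THI2.1 had 15.08 in seed coat and 12.42 in whole seeds, and between 5.42 and 6.71 in the other groups. BAN had 8.40 in peripheral endosperm, above the 6.24 of chalazal and the 6.46 of micropylar endosperm, and DFR had 11.28, 8.70 and 9.25 in that order. The BAN signals were 6.36, 79.3 and 23.9 in chalazal endosperm, all background, and 5.4, background too, and 166 in micropylar endosperm.

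**Figure D5:**
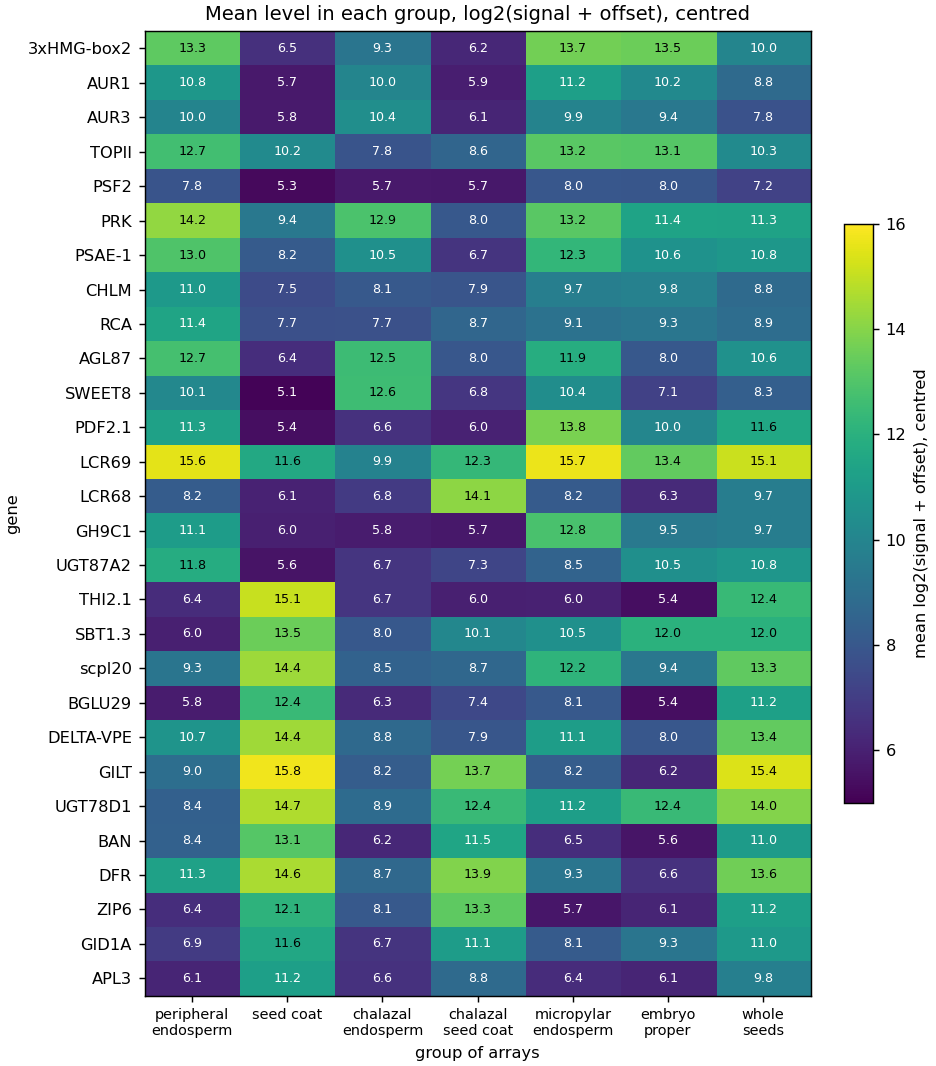
Mean level of 28 genes in each of the 7 groups, as centred log2(signal + offset), from dark (low) to yellow (high), with the value in each cell and peripheral endosperm and seed coat in the first columns. PRK and RCA are highest in peripheral endosperm, 3xHMG-box2 is high in peripheral and micropylar endosperm and embryo, and THI2.1 is high in seed coat and whole seeds.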

How the data were processed

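RNA of laser-captured compartments was measured on 16 ATH1 arrays. The authors made linear signal intensity values with GCOS, per the submitters' processing notes, which give no version or settings. Over all probe sets, controls included, the trimmed mean lay between 499.7 and 499.8 on each array, so the arrays share 1 scaling. Other quality values were uneven. The Cre control probe sets had signals of 100957 to 148558 on the 4 compared arrays and 193622 to 269817 on the 6 chalazal arrays. Ratios of 3' to 5' control probe sets ran from 3.49 to 24.7 for GAPDH and from 6.11 to 40.8 for actin over the 16 arrays. The effect on the contrasts was not tested. From these values log2(signal + 30.2) was computed and centred on the array's median. A probe set was tested when it passed the 40th percentile of 2 or more arrays (19475 did, 3271 did not, and 64 controls were left out). A model of the 7 group means was fitted with limma 3.58.1 in R 4.3.3, with intensity trend, 9 residual and 18.3 prior degrees of freedom, and tested on simulated data. All comparisons are limma contrasts with Benjamini-Hochberg adjustment over all tested probe sets. Genes were named by the platform annotation and the TAIR10.1 gene table (13436 of 13513 matched). The groups and lists were chosen with earlier results of these data known, and some lists came from such an analysis. Named are the 12 largest calls each way that name 1 gene and whose groups do not overlap. Also named are the 6 largest each way for side against pole, which had to pass both tests, and up to 4 calls per list by p. Others (RCA, CHLM, SBPASE among them) were picked after their values were seen. The alternatives tried are in the closing section. No sequence was used here.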

Additional observations from a re-analysis of the deposited data

Results flagged for a closer look

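Of the 34 genes named for the size of their difference, along the side of the seed or between the side and the chalazal pole, 28 had a called difference between these 2 steps of filial minus maternal tissue and are given here. The 6 each way named for side against pole had to pass this test to be named. The others were chosen for an extreme difference along the side, which enters the contrast. The count of 28 is thus largely set by the selection and is no result of its own. Over all probe sets tested 1513 were higher and 1748 lower along the side. Each value here is the log2 difference along the side minus that at the pole, from 1 limma contrast; where an array was background, as in many of these genes, it is the model's value and no exact size. Among genes with a symbol the difference was higher along the side for the mitotic chromosome protein 3xHMG-box2 at 3.71, the defensin PDF2.1 at 5.35, the glycosyltransferase UGT87A2 at 6.83 and the defensin-like LCR68 at 9.45. It was lower for the thionin THI2.1 at -9.44, the phosphatase PAP20 at -10.0, the subtilase SBT1.3 at -5.54 and the wall protein TBL38 at -3.23.

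Among genes listed by locus the difference was higher along the side for AT2G38800 at 9.62, AT5G66820 at 6.83, AT1G67820 at 6.56, AT1G25550 at 6.55, AT5G55520 at 6.25, AT1G11070 at 4.76, AT5G17160 at 4.14, AT5G50740 at 3.33, AT5G27550 at 3.21 and AT5G60930 at 2.65. AT2G38800 had signals of 120.1 and 196 in peripheral endosperm, against 6.23 and 2.54 in seed coat. It differed by 2.51 along the side and -7.11 at the pole, and its call along the side was lost without any 1 of the 4 compared arrays (adjusted p up to 0.169). The difference was lower along the side for AT5G58660 at -9.05, AT5G59845 at -8.29, AT1G53400 at -8.14, AT2G45840 at -7.73, AT5G62210 at -6.38, AT1G80130 at -5.88, AT5G47330 at -5.24, AT5G49180 at -4.40, AT1G78780 at -3.32 and AT5G60140 at -3.07. AT5G58660 had signals of 33 and 1.47 in peripheral endosperm, against 784 and 478 in seed coat. It differed by -3.75 along the side and 5.30 at the pole.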

How the results depend on the processing

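Leaving out 1 of the 4 compared arrays lowered the counts: 842 to 1026 probe sets were higher in peripheral endosperm against 1772 with all arrays, 958 to 1163 were lower against 1709, and 51.3% to 60.7% of the 3481 calls remained. For the side against the chalazal pole the counts over these 4 and the 6 chalazal arrays ran from 829 to 1828 higher, against 1513, and from 1037 to 1811 lower, against 1748. The low ends came from leaving out the 4 compared arrays (829 to 915 and 1037 to 1116). Array weights gave 3356 higher and 2818 lower calls, the 4 arrays alone 3088 and 2579, and the fit without chalazal arrays and whole seeds 2973 higher. With an offset of 1 the lower count of the side against pole contrast was 1089. The median difference of 0.13 became 0.0388 without centring, 0.0681 after quantile normalization and 0.0795 with the offset at the median of all values. The cause was not tested. Of 1957 results of single named genes under the alternatives, 1844 kept their side of the threshold, 111 lost the call and 2 gained it. No called difference changed sign, and 4 uncalled ones did under some alternative (BBM, PHV, UGT80B1 and YAB3). The labels number the replicates in every group, but same-numbered arrays did not deviate together: the correlation between peripheral endosperm and seed coat was -0.007, and 1 of 43 pairs of arrays passed 0.1. The replicate block gave 1982 higher and 1836 lower calls, 99.9% of the unblocked calls among them, and 1671 higher and 1900 lower for the side against the pole. Signals near the bacterial controls limit the fold of dim genes to a lower bound.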

Other observations

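The genes known by locus alone among the largest rises fell into different patterns over the other compartments, given here as levels (centred log2) with no test. AT5G60930 had 11.67 in peripheral endosperm and 5.35 in seed coat, and 12.17 in micropylar endosperm and 11.69 in embryo. AT3G44050, AT5G55520, AT5G17160, AT5G27550 and AT5G50740 also lay above 11 in both of these. AT1G11070 had 12.23 in peripheral endosperm and 6.32 in seed coat, with 11.14 in micropylar endosperm and 7.88 in embryo. AT3G05460 had signals of 8125 and 12509 in peripheral endosperm, against 276 and 96.1 in seed coat, and a level of 9.80 in micropylar endosperm and 7.94 in embryo. For both AT1G11070 and AT3G05460 the mean level in the embryo was under that in these endosperm parts. For AT3G05460 the single arrays overlapped, with signals of 269 and 2370 in micropylar endosperm and 91.3 and 559 in embryo. Its level in chalazal endosperm was 10.99.

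Further members of the enzyme families were lower in peripheral endosperm at moderate signals. SCPL34 had 45.8 and 22.4 in peripheral endosperm, against 909 and 899 in seed coat, at least 8.69-fold lower (adjusted p = 0.000456). SCPL27 had 1.74 and 31.3 in peripheral endosperm, against 468 and 685 in seed coat, at least 5.56-fold lower (adjusted p = 8.33e-05). UGT73C1 had 9.75 and 12.1 in peripheral endosperm, against 231 and 215 in seed coat, at least 2.35-fold lower (adjusted p = 0.00478). In each of the 3 both peripheral endosperm arrays were background and the groups did not overlap. MTP11, a manganese transporter, had 1109 and 611 in peripheral endosperm, against 2904 and 3235 in seed coat, a difference of -1.77 ± 0.57 (SE; adjusted p = 0.0293) that was lost without any 1 of the 4 arrays (adjusted p up to 0.292).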
